A study of Canis lupus familiaris with 25 samples.

Results

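Sialyltransferases are Golgi enzymes that move sialic acid from an activated donor onto the ends of sugar chains on proteins and lipids. 10 of the 24532 genes in the deposited count table are followed here: ST6GAL1, ST6GAL2, ST3GAL1 to ST3GAL6, ST6GALNAC1 and ST6GALNAC2. They were chosen by name from the families that build α2,6 and α2,3 linkages to galactose and from the first 2 enzymes of the family that works on O-glycans. Their RNA levels were compared over canine hepatoid gland adenoma (HGA), primary apocrine gland anal sac adenocarcinoma (AGASAC) and AGASAC metastases.

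The linkage that a sialyltransferase makes decides which lectins can read the sugar chain. α2,6-linked sialic acid on N-glycans blocks binding by galectins and is read by some Siglecs, while α2,3-linked sialic acid is part of the sialyl Lewis structures and of the gangliosides. On O-glycans, sialic acid added early to the first sugar or to core 1 stops the chain from growing further. Levels of RNA say nothing here about enzyme activity or about the sugars themselves, which were not measured.

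HGA is a benign tumor of the hepatoid glands around the anus, which are modified sebaceous glands, and AGASAC is a malignant tumor of the apocrine glands in the wall of the anal sac. Total RNA came from archived formalin-fixed, paraffin-embedded tissue from which the tissue next to the tumor had been removed, and libraries were read from the 3′ end. The samples are 10 HGA, 11 primary AGASAC, and 4 sublumbar lymph node metastases of the dogs that gave AGASAC 1 to 4.

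The HGA dogs were 8 to 14 years old (median 12), 5 male and 5 female, 6 intact and 4 neutered, and came from 10 breeds or crosses, among them Beagle, Husky, Golden Retriever and Groenendael. The AGASAC dogs were 8 to 12.5 years old (median 10), 6 male and 5 female, 2 intact and 9 neutered, among them Pug, Shih Tzu, Eurasier and Munsterlander. The dogs with a metastasis were 8 to 10 years old (median 9), 2 male and 2 female, 1 intact and 3 neutered. They were a Rhodesian Ridgeback, a Border Collie, a Mixed-breed and a Labrador Retriever. The HGA libraries held 1562347 to 6389555 counts, with a median of 2506085. AGASAC held 2581453 to 4218340 (median 2950459), and the metastases, the most even group, 2857541 to 3289546 (median 3102626). DV200, a measure of how much RNA is in longer fragments, was 70.5 to 92.7 in HGA, 70.2 to 84.4 in AGASAC and 71.8 to 82.9 in the metastases.

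The tumor types carried their gland markers. Sebaceous and basal cell markers summed to 6612 CPM (counts scaled to library size) in the lowest HGA, 89900 in the median one and 123000 in the highest, with SCD the most abundant, against 1420, 2540 and 3390 in AGASAC. Keratins of simple glands summed to 1.29, 63.0 and 148 CPM in HGA, with KRT7 the most abundant, against 1780, 3120 and 4160 in AGASAC, where KRT19 led. KRT8 had 0 counts in 9 of 10 HGA and KRT79 had 0 counts in all 11 AGASAC. HGA 10 stood apart from the other HGA: its sebaceous and basal sum of 6612 CPM compares with 48650 in the next lowest, its simple keratin sum was the 1.29 given above, and its SCD level of 2206 CPM lies inside the AGASAC range of 1154 to 2872. Its squamous sum of 782 CPM was the highest in HGA, next to 775 in HGA 5. HGA 10 is also the only HGA of extraction batch 9 and the only HGA outside the read-file naming series A described below, so fits within that series leave it out too. Values of the tested members without HGA 10 are given below.

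By mean level the most abundant of the 10 genes in HGA was ST6GALNAC2, and in AGASAC and its metastases it was ST6GAL1. Each transcript gives 1 fragment in 3′ libraries, so CPM are compared between genes without scaling to length. How fully the 3′ end of each gene is annotated was not tested. In mean CPM the HGA order was ST6GALNAC2 (186), ST3GAL5 (42.0), ST3GAL6 (35.4), ST6GAL1 (25.9), ST3GAL2 (14.8), ST3GAL1 (7.12), ST3GAL4 (2.16), ST6GAL2 (1.16), ST3GAL3 (0.953) and ST6GALNAC1 (0.181). In AGASAC it was ST6GAL1 (1071), ST6GAL2 (226), ST3GAL6 (37.9), ST3GAL2 (25.0), ST3GAL5 (23.0), ST3GAL1 (9.07), ST3GAL4 (3.59), ST3GAL3 (3.41), ST6GALNAC2 (3.28) and ST6GALNAC1 (0). ST6GALNAC2 lay above ST3GAL5 in 10 of 10 HGA, though in HGA 10 ST3GAL6 (76.6 CPM) lay above ST6GALNAC2 (68.8 CPM), and ST6GAL1 lay above ST6GAL2 in 10 of 11 AGASAC. ST3GAL6 lay above ST6GAL1 in only 4 of 10 HGA, so the middle of the HGA order is not fixed. Nor is the AGASAC order below ST6GAL2, with ST3GAL6 above ST3GAL2 in 6 of 11 and ST3GAL4 above ST3GAL3 in 5 of 11. In AGASAC the medians of ST6GAL2 and ST3GAL6, 41.7 and 21.2 CPM, lay below their means. Among all genes, ST6GALNAC2 stood at percentile 96.3 by mean level in HGA, and ST6GAL1 and ST6GAL2 stood at 99.6 and 97.4 in AGASAC.

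**Figure D1:**
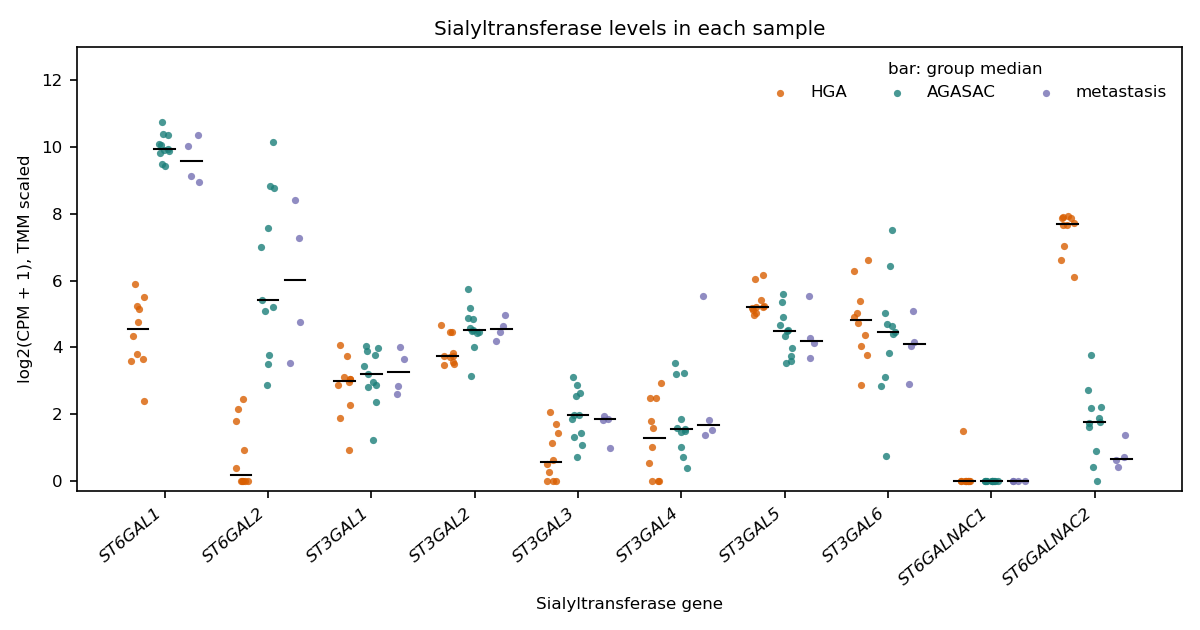
Level of each of the 10 sialyltransferase genes as log2(CPM + 1) in HGA, primary AGASAC and metastases, with 1 point per sample and a bar at the group median. ST6GAL1 has medians of 22.7 CPM in HGA and 982 CPM in AGASAC, and ST6GALNAC2 has medians of 207 and 2.37 CPM.

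HGA and AGASAC differed in 3 of the sialyltransferases. ST6GAL1 and ST6GAL2, which cap galactose, were high in AGASAC and low in HGA, and ST6GALNAC2, which adds sialic acid to the inner sugar of O-glycans, was high in HGA and near 0 in AGASAC. None of the 4 α2,3 genes that were tested was called, ST3GAL3 and ST3GAL4 were not tested, and no test was made between kinds of linkage. 7 of the 10 members passed the count filter in this comparison and 3 were called, 1 higher and 2 lower in HGA, beside 3032 of all 12070 tested genes (25.1%), of which 1523 were higher (12.6%) and 1509 lower (12.5%). With so many genes called between 2 tumors of different glands, the number of members called carries little information, and the genes are taken one by one.

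ST6GAL1 adds α2,6-linked sialic acid to galactose at the ends of N-glycans. It was found at 4.30 CPM in the lowest HGA (HGA 4), 22.7 in the median one and 58.8 in the highest (HGA 5), against 691 (AGASAC 2), 982 and 1733 (AGASAC 5) in AGASAC. Every AGASAC lay above every HGA, by more than 10 times at the nearest pair, and the gene was still counted in each HGA, with 7 to 144 counts. It fell by a log2 fold change of −5.34 in HGA (SE 0.384, 95% interval −6.13 to −4.54, 40.4-fold, edgeR quasi-likelihood, Benjamini-Yekutieli adjusted p = 1.26e-09). A group pair without overlap was found for 1102 of the 12070 genes (9.13%). Without HGA 10 the log2 fold change of ST6GAL1 was −5.25, and over all single leave-outs it ran from −5.54 to −5.21.

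ST6GAL2 makes the same linkage, and in other species it is expressed in far fewer tissues than ST6GAL1. In HGA it was close to absent, with 0 counts in 5 of 10 samples, a median of 0.152 CPM and a highest value of 4.52 CPM in HGA 8. AGASAC spread widely, from 6.39 CPM in AGASAC 4 over a median of 41.7 to 1130 in AGASAC 7, a 177-fold range. AGASAC 1 and 6 also stood high, at 439 and 457 CPM, while AGASAC 3 had 10.4, and the groups did not overlap. ST6GAL2 fell in HGA with a log2 fold change of −7.69 (SE 1.11, 95% interval −9.98 to −5.40, 207-fold, edgeR quasi-likelihood, Benjamini-Yekutieli adjusted p = 4.42e-05).

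The size of the ST6GAL2 difference depends on single libraries, its direction does not. HGA holds 27 ST6GAL2 counts in all, so the fold rests on few reads on that side. Leaving out AGASAC 7 gave −6.95 (SE 0.985), leaving out HGA 8 gave −8.33 (SE 1.21), and without HGA 10 it was −7.56. With neutering as a covariate the ST6GAL2 value was −6.41 (edgeR quasi-likelihood, Benjamini-Yekutieli adjusted p = 0.00261), 2.44 times less than in the fit without it. Intact dogs make up 6 of 10 HGA and 2 of 11 AGASAC, and the part of neutering in the difference was not tested.

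The ST3GAL enzymes add α2,3-linked sialic acid to galactose, each on its own set of chains. ST3GAL1 and ST3GAL2 cap core 1 O-glycans, and ST3GAL2 also works on gangliosides. ST3GAL1 had 0.904, 7.03 and 16.0 CPM in the lowest, median and highest HGA and 1.34, 8.27 and 15.6 in AGASAC, so the groups covered the same range. Its log2 fold change was −0.32 (SE 0.399, 95% interval −1.14 to 0.504), and −0.33 without HGA 10. ST3GAL2 had 10.2, 12.4 and 24.4 CPM in HGA and 7.84, 21.8 and 53.1 in AGASAC, with most AGASAC above the HGA median but overlap between the groups. Its log2 fold change of −0.73 (SE 0.266, 95% interval −1.28 to −0.178) was not called by edgeR (quasi-likelihood, Benjamini-Yekutieli) (p = 0.276), and without HGA 10 it was −0.71. When samples were scaled by library size alone ST3GAL2 was called, at −1.04 (edgeR quasi-likelihood, Benjamini-Yekutieli adjusted p = 0.0344). That scaling moves the median log2 fold change of all genes from −0.0315 to −0.331 and the split of called genes to 1053 higher and 2156 lower.

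ST3GAL5 makes GM3, the ganglioside from which most others are built. It had 30.5, 36.1 and 70.7 CPM in the lowest, median and highest HGA and 10.7, 21.4 and 47.3 in AGASAC, so the lowest HGA lay above the AGASAC median. Its log2 fold change was 0.90 (SE 0.26, 95% interval 0.358 to 1.43), which was not called by edgeR (quasi-likelihood, Benjamini-Yekutieli) (p = 0.0664). It was called when AGASAC 1, the highest AGASAC, was left out (1.05, p = 0.014 by edgeR (quasi-likelihood, Benjamini-Yekutieli)) and when AGASAC 6 was left out (1.01, p = 0.0285), and without HGA 10 it was 0.92. Whether ST3GAL5 differs is therefore not settled by these samples.

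ST3GAL3, ST3GAL4 and ST3GAL6 cap galactose on N-acetyllactosamine chains, the step that leads to sialyl Lewis structures. ST3GAL6 varied within both tumor types, with 6.33, 27.4 and 96.5 CPM in the lowest, median and highest HGA and 0.670, 21.2 and 182 in AGASAC. The 182 CPM came from AGASAC 9, AGASAC 7 had 86.0, whereas AGASAC 8 had 2 counts. The log2 fold change was −0.09 with a wide interval (SE 0.614, 95% interval −1.36 to 1.18), and it was 0.61 without AGASAC 9 and −0.29 without HGA 10, so no direction is given. ST3GAL3 and ST3GAL4 did not pass the filter in this comparison. ST3GAL3 had 0, 0.486 and 3.16 CPM in HGA and 0.653, 2.92 and 7.58 in AGASAC, or 0 to 7 and 2 to 22 counts. ST3GAL4 had 0, 1.51 and 6.57 CPM in HGA and 0.297, 1.94 and 10.7 in AGASAC, and each of these genes had 0 counts in 3 HGA.

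ST6GALNAC2 adds α2,6-linked sialic acid to the N-acetylgalactosamine of core 1 O-glycans. In HGA it had 68.8 CPM in the lowest sample (HGA 10), 207 in the median one and 242 in the highest (HGA 7), with 158 to 1304 counts. AGASAC had 0 (AGASAC 2), 2.37 and 12.6 CPM (AGASAC 11, 52 counts). The groups lay far apart, with HGA 10, HGA 4 (97.1 CPM) and HGA 2 (131 CPM) the lowest HGA and the other 7 between 200 and 242 CPM. ST6GALNAC2 rose in HGA with a log2 fold change of 5.81 (SE 0.479, 95% interval 4.82 to 6.80, 56.1-fold, edgeR quasi-likelihood, Benjamini-Yekutieli adjusted p = 1.06e-08). Without HGA 10 it was 5.91, and over all single leave-outs it ran from 5.67 to 6.31. With extraction batch as a covariate it was 6.54.

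ST6GALNAC1, which makes the sialyl-Tn structure on the first sugar of O-glycans, was close to unread in all groups. It had 4 counts in HGA 2 (1.81 CPM) and 0 counts in the other 24 samples. In the dog assembly UU_Cfam_GSD_1.0 ST6GALNAC1 and ST6GALNAC2 lie on the same chromosome with 1 gene between them, which does not code for protein. Reads were counted on CanFam3.1, where the authors extended 3′ ends because annotations can be too short. Neighboring position thus went with very different counts in HGA. Whether reads of ST6GALNAC1 were missed for its annotated 3′ end was not tested.

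**Figure D2:**
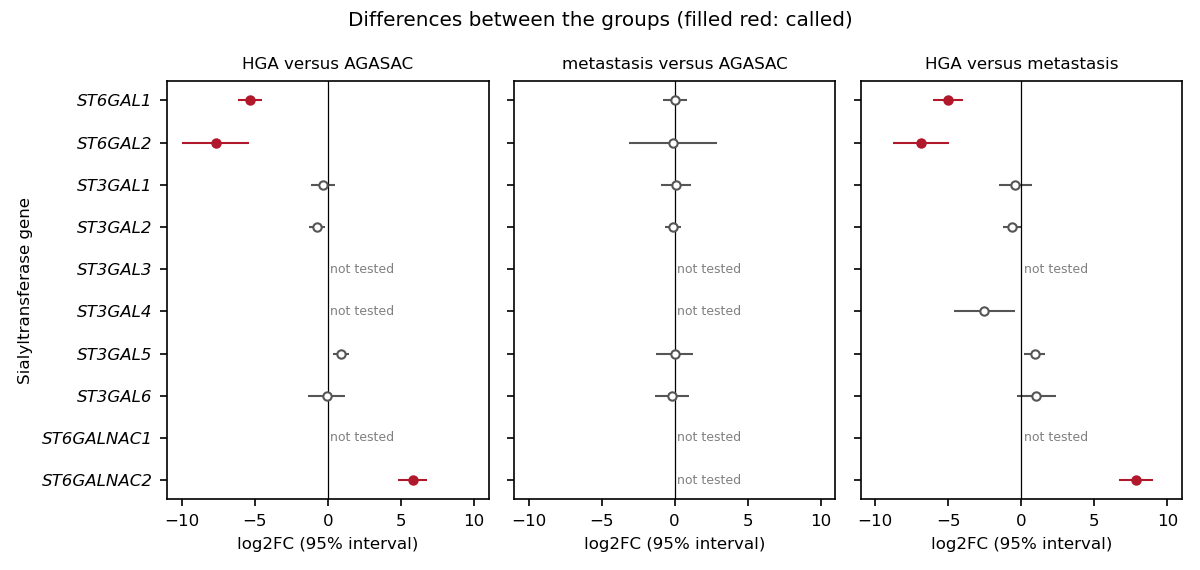
Log2 fold changes with 95% intervals for the 10 genes in 3 comparisons, 1 panel each, with filled red points for called genes and "not tested" for genes that did not pass the filter. ST6GAL1, ST6GAL2 and ST6GALNAC2 are called in HGA relative to AGASAC (−5.34, −7.69 and 5.81) and in HGA relative to metastasis (−5.01, −6.89 and 7.86).

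Seen as a mixture, the 10 genes were few and led by an O-glycan enzyme in HGA, and many and led by ST6GAL1 in AGASAC. Their CPM summed to 214, 323 and 372 in the lowest, median and highest HGA and to 788, 1415 and 2392 in AGASAC. ST6GALNAC2 made up 32.1 to 69.5% of the sum in HGA and at most 0.788% in AGASAC, while ST6GAL1 made up 1.47 to 16.5% in HGA and 45.6 to 95.9% in AGASAC. HGA 4 and HGA 10 had the lowest ST6GALNAC2 shares in HGA (33.2 and 32.1%), with ST3GAL6 at 33 and 35.7%. ST6GAL2 took 47.3% in AGASAC 7 and ST3GAL6 14.9% in AGASAC 9. There were 2.96 to 22.6 ST6GALNAC2 counts per ST6GAL1 count in HGA (median 7.62) and 0 to 0.00958 in AGASAC (median 0.00276), a ratio within each library that does not depend on scaling between samples.

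**Figure D3:**
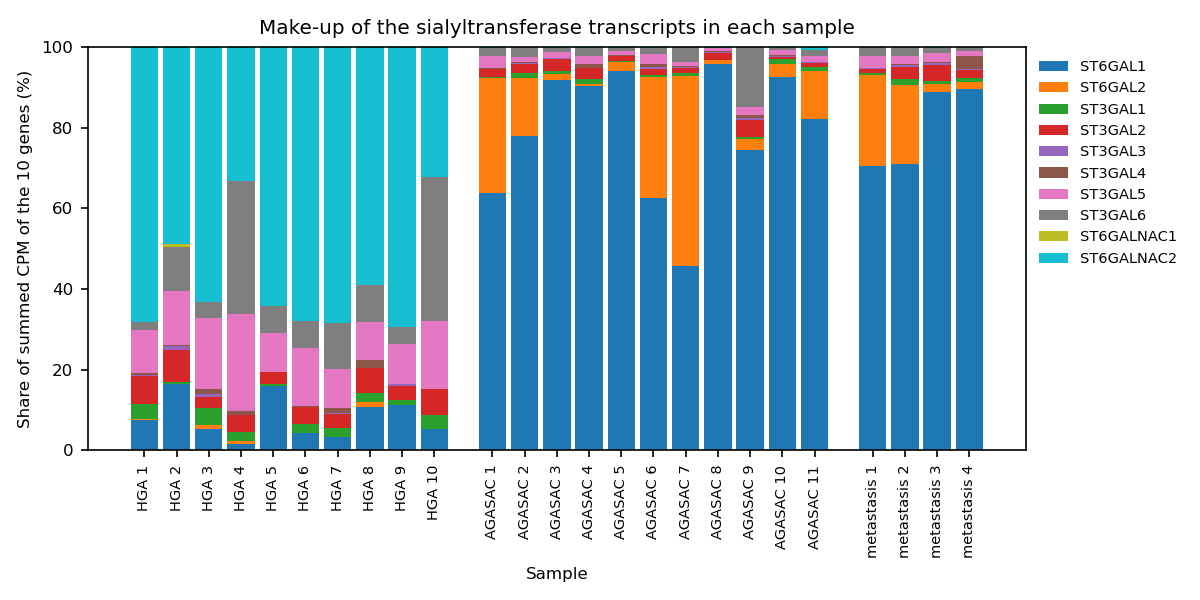
Share of each gene in the summed CPM of the 10 sialyltransferase genes, as 1 stacked bar per sample, grouped by HGA, AGASAC and metastasis. ST6GALNAC2 fills 32.1 to 69.5% of the HGA bars and ST6GAL1 fills 45.6 to 95.9% of the AGASAC bars.

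The differences in ST6GAL1 and ST6GALNAC2 were present within extraction batches. For batches 5, 6 and 8 the log2 fold changes of HGA relative to AGASAC were −5.15, −4.43 and −6.51 for ST6GAL1, −7.35, −8.78 and −10.27 for ST6GAL2, and 7.09, 6.14 and 6.35 for ST6GALNAC2. ST6GAL1 was called in each of the 3 batches and ST6GALNAC2 in batches 5 and 6, while ST6GAL2 was called in none, with 2 or 3 samples per group. In batch 8 alone ST6GALNAC2 had p = 0.0877, and ST6GAL2 had p = 0.453, 0.139 and 0.114 in batches 5, 6 and 8 by edgeR (quasi-likelihood, Benjamini-Yekutieli). 9 of the 10 HGA and 3 of the 11 AGASAC share 1 form of read-file numbering, called series A here, whose meaning is not known, while for AGASAC 4 the form is not known. Within series A the values were −4.83 for ST6GAL1, −7.31 for ST6GAL2 and 6.84 for ST6GALNAC2, and all 3 were called.

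Other cell types differed between the groups as well, and their part in the results was not tested. Endothelial markers summed to 196, 235 and 571 CPM in the lowest, median and highest HGA and 52.9, 136 and 227 in AGASAC, with VWF the most abundant in both, and CDH5 and CLDN5 were called higher in HGA. Squamous markers summed to 225, 410 and 782 CPM in HGA, led by DSG1, and 55.6, 84.3 and 219 in AGASAC, led by KRT10, and DSG1 was called higher in HGA with 0 counts in 9 of 11 AGASAC. Fibroblast markers, led by COL1A1, summed to 1180, 2440 and 5600 CPM in HGA and 989, 3500 and 7850 in AGASAC, and smooth muscle markers, led by ACTA2, to 55.1, 87.7 and 202 and to 27.4, 125 and 241. None of the genes of these last lists was called. In bulk samples, fewer cells of a type and less RNA per cell cannot be told apart.

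Immune cells were followed by 3 lists. Macrophage markers, led by CSF1R, summed to 37.8, 75.0 and 145 CPM in the lowest, median and highest HGA and 63.9, 134 and 186 in AGASAC, and CD14 was called lower in HGA. Plasma cell markers, led by JCHAIN, summed to 5.53, 26.4 and 106 CPM in HGA and 30.6, 71.7 and 200 in AGASAC. T cell markers, led by CD2, summed to 0.615, 5.79 and 40.7 in HGA and to 12.1, 21.1 and 96.5 in AGASAC. Of 5 plasma cell and 5 T cell markers only JCHAIN and CD2 passed the filter, and neither was called, at log2 fold changes of −0.99 and −1.53. Skeletal muscle markers summed to 0.424, 3.99 and 19.7 CPM in HGA, led by MYH7, and 4.13, 88.6 and 738 in AGASAC, led by ACTA1, which was called lower in HGA, and MYH1 had 0 counts in all HGA. Their part in the sialyltransferase results was not tested.

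Between metastases and primary tumors no sialyltransferase was called, and 4 of the 10 were not tested. ST6GAL1 was the most abundant member in each of the 4 metastases, ST6GALNAC2 was near 0, and the dogs with high ST6GAL2 in the primary tumor had it high in the metastasis. The 4 metastases were set as a group against AGASAC 1 to 4, their own dogs' primary tumors, without pairing in the fit. Values from a fit with the dog as block are given beside. In dogs 1 to 3 the samples of a dog share an extraction batch, while AGASAC 4 is of batch 6 and metastasis 4 of batch 5. The part of batch in the values of dog 4 was not tested. 6 members passed the filter and 0 were called, beside 0 of all 12629 tested genes (0%) by edgeR (quasi-likelihood, Benjamini-Yekutieli). At unadjusted p under 0.05 there were 145 of the 12629 genes, and DESeq2 called 5 genes, 0 of them members.

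ST6GAL1 had 1056, 557, 491 and 1312 CPM in metastases 1 to 4, with metastases 2 and 3 below the range of all primary tumors (691 to 1733). The log2 fold change against the 4 primary tumors was 0.03 (SE 0.351, 95% interval −0.763 to 0.824). In counts of primary tumor and metastasis, dog 1 had 3258 and 3255, dog 2 had 2115 and 2098, dog 3 had 2441 and 1527, and dog 4 had 3378 and 4108. After scaling, ST6GAL1 was lower in the metastases of dogs 2 and 3 (log2 differences −0.312 and −0.558) and higher in those of dogs 1 and 4 (0.105 and 0.483). With the dog as block the log2 fold change was −0.07 (SE 0.201).

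ST6GAL2 had 339, 154, 10.6 and 25.9 CPM in metastases 1 to 4, a spread that followed the dogs. The primary tumors and metastases of dogs 1 to 4 had 1455 and 1045, 388 and 580, 35 and 33, and 23 and 81 counts. In log2 units the mean size of the difference within a dog, whatever its sign, was 0.635. Most of it came from dog 4 (1.86), whose samples are of different extraction batches. The SD among the 4 primary tumors was 2.82. The ST6GAL2 log2 fold change was −0.14 with a wide interval (SE 1.33, 95% interval −3.14 to 2.87), and it was 1.47 without AGASAC 1 and −1.16 without metastasis 1. With the dog as block it was 0.40 (SE 0.351). These values leave the direction of ST6GAL2 unknown.

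The 4 α2,3 genes that were tested were not called between primary tumor and metastasis. ST3GAL1 had 6.16, 11.7, 5.15 and 15.0 CPM in metastases 1 to 4 and ST3GAL2 had 17.2, 23.9, 21.2 and 30.7, with log2 fold changes of 0.10 (SE 0.446, 95% interval −0.907 to 1.11) and −0.10 (SE 0.248, 95% interval −0.663 to 0.46). ST3GAL5 had 45.1, 16.5, 11.9 and 18.5 CPM and ST3GAL6 had 32.8, 17, 6.43 and 15.3, with −0.01 (SE 0.556, 95% interval −1.26 to 1.25) and −0.18 (SE 0.524, 95% interval −1.37 to 1.00). Dog 1 was highest for ST3GAL5 in both tissues, with 157 counts in the primary tumor and 139 in the metastasis, and without AGASAC 1 the ST3GAL5 value was 0.61. Within dogs, ST3GAL5 and ST3GAL6 differed by 0.197 and 0.234 log2 units on average, against SDs of 0.927 and 0.81 among the 4 primary tumors. ST3GAL1 differed by 0.205 against an SD of 0.444. For ST3GAL2 and ST6GAL1 the mean difference within a dog was larger than the SD, at 0.277 against 0.206 and 0.364 against 0.257. With the dog as block the values were 0.04 for ST3GAL1 (SE 0.303), −0.12 for ST3GAL2 (SE 0.231), 0.06 for ST3GAL5 (SE 0.213) and −0.23 for ST3GAL6 (SE 0.216), with smaller SEs than in the fit without pairing.

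ST3GAL3, ST3GAL4, ST6GALNAC1 and ST6GALNAC2 did not pass the filter in this comparison. ST3GAL4 had 1.62, 1.86, 2.57 and 45.7 CPM in metastases 1 to 4, and the primary tumors and metastases held 6 and 5, 2 and 7, 1 and 8, and 30 and 143 counts. It was thus higher in the metastasis in dogs 2, 3 and 4, with few counts in dogs 2 and 3. Dog 4 is the pair from different extraction batches. ST3GAL3 had 0.973, 2.65, 2.57 and 2.88 CPM in metastases 1 to 4, with 5 and 3, 8 and 10, 10 and 8, and 4 and 9 counts in primary tumor and metastasis. ST6GALNAC2 had 1, 2, 5 and 2 counts in the metastases, against 9, 0, 8 and 13 in the primary tumors of these dogs. ST6GALNAC1 had 0 counts in all of them.

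**Figure D4:**
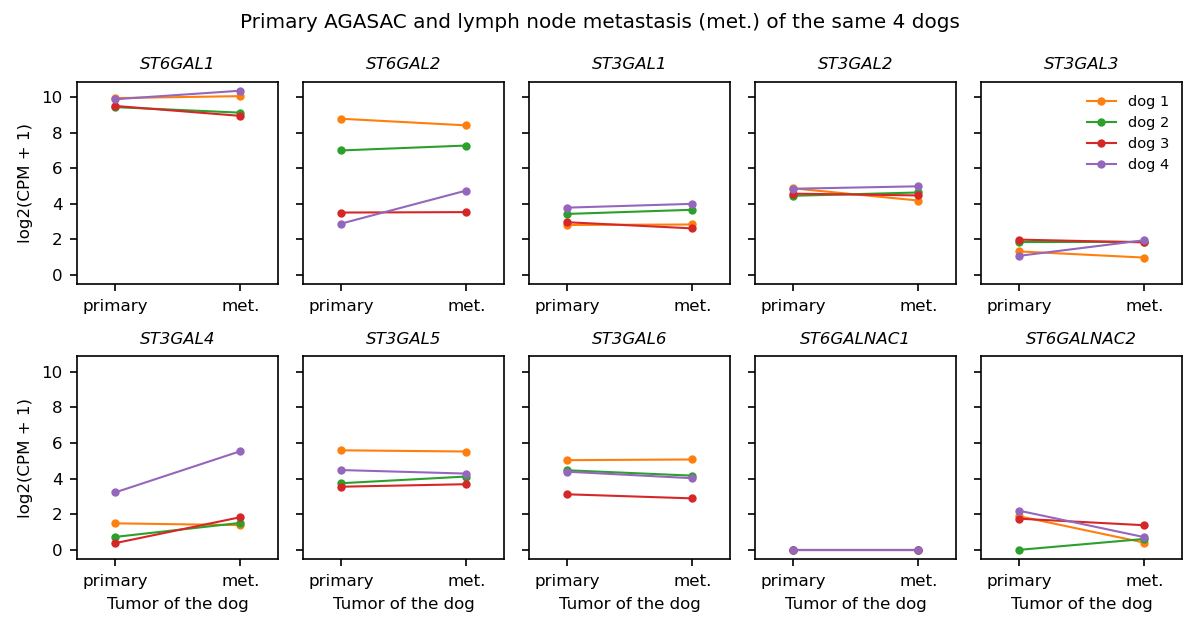
Primary tumor and metastasis of 4 dogs joined by a line, as log2(CPM + 1), with 1 panel for each of the 10 genes. ST6GAL2 stays high in dog 1 (1455 and 1045 counts) and low in dog 3 (35 and 33 counts), and ST3GAL4 is high only in dog 4 (30 and 143 counts).

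The metastases came from lymph nodes, and immune markers were present in each. T cell markers summed to 35.0, 41.4, 53.4 and 36.1 CPM in metastases 1 to 4, with CD3G the most abundant, beside 21.1, 18.9, 16.6 and 38.1 in the primary tumors of these dogs. They were thus higher in the metastasis in dogs 1, 2 and 3. Plasma cell markers summed to 74.9, 180, 43.7 and 104 CPM, beside 96.1, 59.8, 49.2 and 41.7 in the primary tumors, and macrophage markers to 102, 168, 70.4 and 157, beside 112, 117, 91.0 and 135. Each of these lists was higher in the metastasis in dogs 2 and 4 and lower in dogs 1 and 3. Simple gland keratins summed to 4530, 1992, 3688 and 3172 CPM, beside 4156, 2624, 3123 and 2371 in the primary tumors. They were lower in the metastasis in dog 2 and higher in dogs 1, 3 and 4. Sebaceous and basal markers summed to 2745, 1925, 2141 and 2435, beside 3276, 3009, 1805 and 1833, lower in dogs 1 and 2 and higher in dogs 3 and 4. No gene of any marker list was called between metastasis and primary tumor, and the part of these cells in the values was not tested.

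Markers of supporting tissue went both ways within dogs. Fibroblast markers summed to 718, 12850, 1285 and 2972 CPM in metastases 1 to 4, beside 989, 6794, 6787 and 7849 in the primary tumors, and smooth muscle markers to 26.3, 401, 72.7 and 88.8, beside 27.4, 148, 108 and 241. Each list was higher in the metastasis in dog 2 and lower in dogs 1, 3 and 4. Endothelial markers summed to 78.2, 162, 74.6 and 186 CPM, led by PECAM1, beside 109.7, 139.5, 210.2 and 135.6 in the primary tumors. In the metastases squamous markers summed to 110, 60.5, 73.0 and 109 CPM, with DSG1 at 0 counts in all 4, and skeletal muscle markers to between 0.324 and 1.61. In the primary tumors of these dogs skeletal muscle markers summed to 16.9, 354, 9.49 and 299 CPM, so they were lower in each metastasis. ACTA1 had a log2 fold change of −8.55 (SE 1.58, unadjusted p = 0.000415), without overlap and without a call. The part of these cells in ST6GAL1 and the other members was not tested.

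HGA against the metastases gave the same 3 called genes as HGA against the primary tumors, with the same HGA samples on 1 side. The values are therefore not a second, separate observation for HGA. The HGA dogs had a median age of 12 years with 6 of 10 intact, the metastasis dogs 9 years with 1 of 4 intact. The part of age and neutering was not tested. 8 members passed the filter and 3 were called, 1 higher and 2 lower in HGA, beside 2124 of all 13195 tested genes (16.1%), with 1109 higher (8.40%) and 1015 lower (7.69%). Groups without overlap were found for 2125 of the 13195 genes (16.1%). Scaling by library size alone moves the split to 788 higher and 1383 lower.

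ST6GAL1 had a log2 fold change of −5.01 in HGA relative to metastasis (SE 0.483, 95% interval −6.04 to −3.99), beside −5.34 relative to the primary tumors. For ST6GAL2 the values were −6.89 (SE 0.908, 95% interval −8.81 to −4.97) and −7.69, and for ST6GALNAC2 they were 7.86 (SE 0.54, 95% interval 6.72 to 9.00) and 5.81. By edgeR (quasi-likelihood, Benjamini-Yekutieli) the p-values of ST6GAL1, ST6GAL2 and ST6GALNAC2 against metastasis were 1.25e-05, 0.000278 and 3.54e-07, and none of the 3 genes overlapped between the groups. The 4 metastases hold 10 ST6GALNAC2 counts in all, so the size of that fold is loosely set. ST6GAL2 was −5.84 without metastasis 1 and −7.54 without HGA 8. Without HGA 10 the values of ST6GAL1, ST6GAL2 and ST6GALNAC2 were −4.92, −6.78 and 7.96.

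Within extraction batches 5 and 8, a check added after the data were seen, no gene at all was called between HGA and metastasis. ST6GAL1 was −5.13 and −6.04 there, ST6GAL2 −2.92 and −10.60, and ST6GALNAC2 7.21 and 8.87, with 2 metastases and 2 or 3 HGA in each batch. By edgeR (quasi-likelihood, Benjamini-Yekutieli) p was 0.213 and 0.063 for ST6GAL1, 1 and 0.0635 for ST6GAL2, and 0.0711 and 0.0572 for ST6GALNAC2. ST6GAL2 in batch 5 is thus far smaller than the pooled value of −6.89. All 4 metastases belong to naming series A.

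ST3GAL4 passed the filter only in this comparison. The filter asks for as many samples as the smaller group holds, here 4, so the 45.7 CPM of metastasis 4 did not pass it alone. The next highest levels were 6.57, 4.56 and 4.55 CPM in HGA 8, 3 and 7. The ST3GAL4 log2 fold change of −2.55 in HGA (SE 0.991, 95% interval −4.64 to −0.451) was not called by edgeR (quasi-likelihood, Benjamini-Yekutieli) (p = 0.609). Without metastasis 4 ST3GAL4 was not tested. Over the 16 alternative settings in which ST3GAL4 was tested the value ran from −2.949 to −1.115, without a call. ST3GAL5 had 0.90 (SE 0.342, 95% interval 0.179 to 1.63), and without metastasis 1 it was called at 1.43 (edgeR quasi-likelihood, Benjamini-Yekutieli adjusted p = 0.0495). ST3GAL1, ST3GAL2 and ST3GAL6 had −0.40 (95% interval −1.54 to 0.738), −0.63 (95% interval −1.26 to 0.00462) and 1.03 (95% interval −0.281 to 2.35), and none was called. Without HGA 10 ST3GAL1, ST3GAL2, ST3GAL4, ST3GAL5 and ST3GAL6 had −0.41, −0.61, −2.38, 0.92 and 0.81. ST3GAL3 and ST6GALNAC1 did not pass the filter.

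Gland markers differed between HGA and the metastases. All 4 simple gland keratins were called lower in HGA, 4 of 6 sebaceous and basal markers were called higher, and so were DSG1 and VWF. Of 5 macrophage markers CD14 was called lower in HGA, with 4 not called and a list median of −0.068, and of 5 T cell markers CD3G was called lower, with 4 not called and a median of −1.86. ACTA1, called lower in HGA than in the primary tumors, did not pass the filter here, and skeletal muscle markers had a median sum of 3.99 CPM in HGA and 0.745 in the metastases. The part of these cells in the ST6GAL1, ST6GAL2 and ST6GALNAC2 values was not tested.

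Sex was balanced enough between HGA and AGASAC to ask whether the tumor difference itself depends on it. Neutering was not balanced with sex: male HGA dogs were mostly intact and male AGASAC dogs all neutered, while females were mixed in each. The part of neutering in this term was not tested. For the term of tumor type by sex 0 of the 12070 genes were called (0%) by edgeR (quasi-likelihood, Benjamini-Yekutieli), 0 of them members. 1058 of the 12070 genes had an unadjusted p under 0.05, and DESeq2 called 11 genes, again 0 members. ST6GAL1 in HGA had a mean of 37.0 CPM in 5 females (19.4 to 58.8) and 14.8 CPM in 5 males (4.30 to 34.4), with overlap, and its term of male minus female was −0.98 (SE 0.541, unadjusted p = 0.0837). In AGASAC the ST6GAL1 means were 1190 in females and 968 in males. The terms were −2.48 for ST6GAL2 (SE 2.28), −1.05 for ST3GAL1 (SE 0.798), −0.65 for ST3GAL2 (SE 0.528), 0.62 for ST3GAL5 (SE 0.512), −0.43 for ST3GAL6 (SE 1.14) and −0.39 for ST6GALNAC2 (SE 0.872). With 5 or 6 dogs per sex, differences of the size of these SEs go unseen.

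The genes around the sialyltransferases were looked at next, from the supply of sialic acid to the chains that carry it. In HGA more of them were low than high relative to AGASAC, among the genes that were called. 49 of 63 such genes were tested and 20 were called (40.8%), 6 higher and 14 lower in HGA, against 25.1% of all genes. Their median log2 fold change was −0.638, against −0.0315 for all tested genes. The lists were put together with earlier results of these data known.

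Of 5 genes for the supply of sialic acid, 3 had less RNA in HGA and 2 were not called, with a list median of −1.30. NANS, which makes sialic acid, had 8.37, 15.7 and 21.4 CPM in the lowest, median and highest HGA and 35.0, 86.8 and 161 in AGASAC. GNE, which starts the pathway, had 1.62, 6.97 and 17.7 CPM in HGA and 10.9, 35.3 and 54.6 in AGASAC, and SLC35A1, which carries the activated donor into the Golgi, had 2.35, 7.77 and 16.0 and 11.2, 21.1 and 35.3. NANS fell without overlap, while GNE and SLC35A1 overlapped at the edges. Their log2 fold changes were −2.69 (SE 0.269), −1.85 (SE 0.338) and −1.30 (SE 0.315), with p = 2.07e-07, 0.000898 and 0.0158 by edgeR (quasi-likelihood, Benjamini-Yekutieli). Within batches 5, 6 and 8 and within naming series A they ran from −3.39 to −1.54 for NANS, from −2.40 to −1.41 for GNE and from −1.63 to −1.33 for SLC35A1. None of the 3 genes was called in any of the 3 batches alone, and SLC35A1 was not called in naming series A either (p = 0.38 by edgeR (quasi-likelihood, Benjamini-Yekutieli)). NANP and CMAS, at −0.29 each, were not called.

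Of the genes that remove or edit sialic acid, 8 of 10 were tested, 1 was lower in HGA and 7 were not called, with a median of −0.187. The lower gene was NEU4, a sialidase, with 0 counts in 8 of 10 HGA and at most 3.29 CPM (HGA 8), against 6.94, 22.1 and 69.2 CPM in the lowest, median and highest AGASAC. NEU4 fell by a log2 fold change of −6.17 (SE 0.726, edgeR quasi-likelihood, Benjamini-Yekutieli adjusted p = 2.5e-06) and ran from −9.41 to −4.78 within batches and naming series A, with its call lost in batches 5 and 8. With so few HGA counts the fold is loosely set, and without HGA 8 it was −8.43. AGASAC thus had more RNA both of ST6GAL1 and of this sialidase.

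The other 10 sialyltransferases, outside the 10 members, hold the α2,8 enzymes and the later ST6GALNAC genes. 4 were tested, with 1 higher in HGA, 0 lower and 3 not called, and a median of −0.493. ST8SIA6, which adds a further sialic acid to sialylated O-glycans, had 11.1, 66.8 and 122 CPM in the lowest, median and highest HGA and 0, 0.694 and 38.2 in AGASAC. It overlapped through AGASAC 8 (38.2 CPM) and AGASAC 4 (22.8 CPM), and it rose in HGA with a log2 fold change of 3.46 (SE 0.791, edgeR quasi-likelihood, Benjamini-Yekutieli adjusted p = 0.00915). Without AGASAC 8 ST8SIA6 was 4.31, and in batches 5, 6 and 8 it was 5.68, 3.01 and 6.25, each without a call. ST6GALNAC4 (−0.86), ST6GALNAC6 (−0.37) and ST8SIA4 (−0.62) were not called. ST6GALNAC3, ST6GALNAC5, ST8SIA1, ST8SIA2, ST8SIA3 and ST8SIA5 did not pass the filter.

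Against the metastases, ST8SIA6 was again higher in HGA. The metastases had 2.27, 1.33, 0 and 13.7 CPM, and the log2 fold change was 4.11 (SE 0.821, edgeR quasi-likelihood, Benjamini-Yekutieli adjusted p = 0.0113). That call was lost in 1 fit of all samples (4.13, p = 0.184 by edgeR (quasi-likelihood, Benjamini-Yekutieli)), without metastasis 1 (3.89, p = 0.0605) and without metastasis 2 (3.8, p = 0.0538). It was also lost in batch 5 alone (3.095) and in batch 8 alone (5.198), which were added after the data were seen. Without metastasis 4 it was 5.93.

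N-glycan genes were mixed. 13 were tested, with 1 higher in HGA, 4 lower and 8 not called, and a median of −0.864. MGAT2, which opens the second branch, had 2.97, 9.90 and 13.0 CPM in the lowest, median and highest HGA and 17.9, 36.7 and 46.9 in AGASAC, without overlap. MAN2A1, the mannosidase just before it, went the other way, with 152, 228 and 335 CPM in HGA and 43.3, 89.9 and 173 in AGASAC. MGAT2 fell by −1.97 (SE 0.226, p = 1.69e-06) and MAN2A1 rose by 1.39 (SE 0.204, p = 5.80e-05), by edgeR (quasi-likelihood, Benjamini-Yekutieli). B4GALT3, which adds the galactose that ST6GAL1 caps, fell by −1.62 and MGAT3, which adds the bisecting sugar, by −2.67. MGAT5, a branching gene chosen after its values were seen, fell by −1.21. Within batches and naming series A the values ran from −2.39 to −1.48 for MGAT2, from 1.59 to 1.88 for MAN2A1 and from −4.24 to −1.69 for MGAT3. These genes and B4GALT3 were called in series A and in none of the batches alone.

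O-glycan genes changed in each direction. 12 of 16 were tested, with 2 higher in HGA, 5 lower and 5 not called, and a median of −0.752. GALNT7 and GALNT6, which add the first sugars, had medians of 8.18 and 2.48 CPM in HGA and 249 and 189 CPM in AGASAC. GALNT7 reached at most 18.9 CPM in HGA and at least 25.3 in AGASAC, while GALNT6 overlapped, with up to 14.0 CPM in HGA and down to 10.8 in AGASAC. GCNT1, which makes the core 2 branch, had 6.15, 27.7 and 83.4 CPM in the lowest, median and highest HGA and 0, 1.95 and 7.93 in AGASAC. The log2 fold changes were −4.68 for GALNT7 (SE 0.482, p = 3.32e-07), −5.57 for GALNT6 (SE 0.698, p = 6.42e-06) and 3.53 for GCNT1 (SE 0.535, p = 8.73e-05), by edgeR (quasi-likelihood, Benjamini-Yekutieli).

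Within batches and naming series A those genes ran from −5.47 to −3.52 for GALNT7, from −8.12 to −3.06 for GALNT6 and from 2.53 to 3.75 for GCNT1. In the batches alone GCNT1 was not called, GALNT7 was called only in batch 6, and GALNT6 only in batches 5 and 6. GALNT12 fell by −3.45 and GALNT11 rose by 1.42, and neither was called in any batch alone or in naming series A alone (p = 0.717 and 0.504 by edgeR (quasi-likelihood, Benjamini-Yekutieli)). GALNT12 was −4.25 without HGA 3. C1GALT1, which builds the core 1 that ST6GALNAC2 acts on, and GALNT2, each chosen after its values were seen, fell by −2.87 and −1.62. In HGA, high ST6GALNAC2 thus stands beside lower RNA of the enzyme that makes its substrate.

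Glycolipid genes build the chains that ST3GAL5 and later enzymes work on. 4 of 6 were tested, with 1 higher in HGA, 1 lower and 2 not called, and a median of 0.225. UGCG, which makes glucosylceramide, had 94.2, 187 and 290 CPM in the lowest, median and highest HGA and 153, 633 and 1432 in AGASAC, and B4GALT5, which makes lactosylceramide, had 38.2, 72.5 and 187 and 4.02, 11.2 and 81.7. Each overlapped. UGCG fell by −1.86 (SE 0.36, p = 0.00172) and B4GALT5 rose by 2.15 (SE 0.446, p = 0.00342), by edgeR (quasi-likelihood, Benjamini-Yekutieli). Within batches 5, 6 and 8 and within naming series A they ran from −2.18 to −1.23 and from 1.19 to 2.94. UGCG was called only in batch 6 and B4GALT5 only in batch 8, and in naming series A alone UGCG was not called (p = 0.0509 by edgeR (quasi-likelihood, Benjamini-Yekutieli)).

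Proteases that cut Golgi enzymes free were tested for 3 genes, with 1 higher in HGA, 0 lower and 2 not called, and a median of −0.432. SPPL3 had 19.9, 39.5 and 55.5 CPM in the lowest, median and highest HGA and 11.5, 17.6 and 32.0 in AGASAC, with overlap. It rose by 1.18 (SE 0.196, edgeR quasi-likelihood, Benjamini-Yekutieli adjusted p = 0.000298), ran from 0.70 to 1.61 within batches and naming series A, and was 0.88, without a call, when scaled by library size alone. SPPL3 was called in none of the batches alone, nor in naming series A alone (1.29, p = 0.0669 by edgeR, quasi-likelihood, Benjamini-Yekutieli). BACE1, which cuts ST6GAL1, was at −0.43 and not called.

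Against the metastases, 50 of these genes were tested and 17 were called (34%), 5 higher and 12 lower in HGA, beside 16.1% of all genes, with a median of −0.669 against 0.018. The lists gave 0 higher and 2 lower of 5 for supply (median −1.04), 0 and 1 of 8 for removal (−0.174), 1 and 3 of 13 for N-glycans (−0.939), 1 and 4 of 12 for O-glycans (−0.885), 1 and 1 of 5 for glycolipids (−0.0803), 1 and 0 of 4 for the other sialyltransferases (−0.564), and 1 and 1 of 3 for the proteases. NANS was at −2.65, NEU4 at −6.86, GALNT7 at −4.45, GCNT1 at 2.94 and MGAT2 at −1.95, beside −2.69, −6.17, −4.68, 3.53 and −1.97 against the primary tumors, with the same HGA samples in each. BACE2, chosen after its values were seen, was called at −3.08 here and not against the primary tumors (−1.90, p = 0.0825 by edgeR (quasi-likelihood, Benjamini-Yekutieli)).

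Between metastasis and primary tumor 49 of these genes were tested and 0 were called, with a median of 0.0103 against 0.00194 for all genes.

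**Figure D5:**
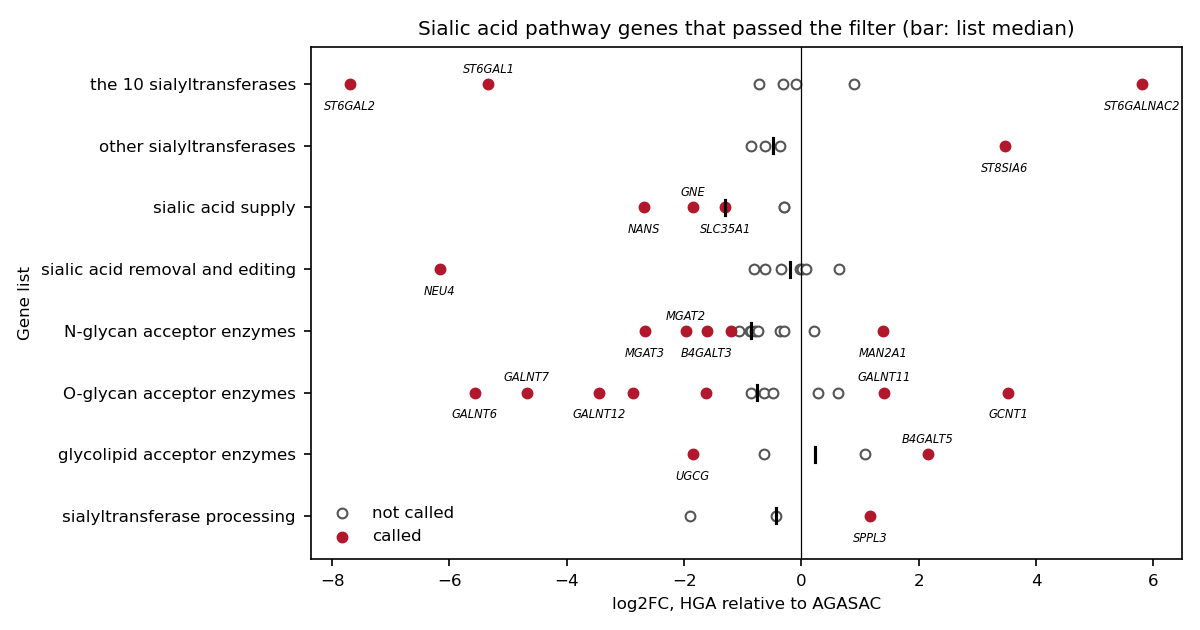
Log2 fold changes of HGA relative to AGASAC for the sialyltransferases and for lists of genes around them, with 1 point per tested gene, filled red where called, and a bar at the median of each list other than the 10 members. The supply list has a median of −1.30 with NANS at −2.69, and GCNT1 stands at 3.53 among O-glycan genes with GALNT6 at −5.57.

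Genes whose levels ran with the members from sample to sample were listed after group means had been removed, over 25 samples and 12069 genes. These are descriptions of likeness without a test, picked as the highest among 12069 genes. ST6GAL2 had 0 to 11 counts in HGA. ST6GALNAC2 had 0 to 52 counts in AGASAC and 1 to 5 in the metastases. Counting error thus enters the values of these members. ST6GAL1 ran most closely with ARPC5L (r = 0.792), ARHGAP8 (0.742) and LRRK1 (0.733). ST6GAL2 ran with CITED1 (0.774), FUCA1 (0.702) and ST3GAL5 (0.681), the GM3 gene. The 25 samples include 2 from each of 4 dogs, and dog 1, high in ST6GAL2 and ST3GAL5 in each tissue, enters 2 times. ST6GALNAC2 ran with NFIL3 (0.77), RHOBTB3 (0.754) and DIS3L (0.743). Of these, ARHGAP8 fell in HGA (−4.38), while CITED1 and NFIL3 rose (3.38 and 4.05).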

How the data were processed

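The values are the count per gene and sample in the authors' deposited table (24532 genes, 25 samples). The authors' deposited signal per sample (count divided by size factor), log2 (shrunken fold change with its standard error) and p-value columns were not used. According to the authors, reads were trimmed with Cutadapt, aligned with STAR to CanFam3.1 and counted with featureCounts in 2 rounds, the later one giving reads still unassigned to an annotation extended at 3′ ends, with multimapping reads split evenly. Versions of these tools are not given in the sources used here.

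Counts were fitted in R 4.3.3 with edgeR 4.0.16: expression filter (minimum count 10, total 15), TMM scaling, quasi-likelihood test, Benjamini-Yekutieli adjustment, a call at adjusted p of at most 0.05 and a log2 fold change of at least 1 in either direction. SE is the absolute log2 fold change divided by the square root of F. DESeq2 1.42.0 was a check. CPM use TMM over 25 samples. 3 counts equal 0.543 to 1.84 CPM, a floor that covers counting error only. Scripts were tested on simulated data.

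Members and lists were chosen with earlier results of these data known. Of each pathway list the 3 called genes with the largest log2 fold change in each direction between HGA and AGASAC were named, and for each called member the 3 genes with the highest r. Other genes singled out are said to be chosen after their values were seen. CMAH and GCNT3 were not found by symbol. Lists of B cell markers and of sialic acid receptors were set up too and are not analysed here. All 10 members were matched by symbol to UU_Cfam_GSD_1.0, on 8 chromosomes, without coordinates. Metastasis and primary tumor of a dog are paired by their labels, and their levels ran together with r of 0.428 to 0.73 in 4 of 4 dogs. No sample was a duplicate (lowest chi-square per degree of freedom 13.5 in HGA, 27.0 in AGASAC, 35.9 in metastases). Sex, neutering, age, breed and DV200 come from the sample labels, and extraction batch and naming series from the study's sample sheet.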

Additional observations from a re-analysis of the deposited data

Results flagged for a closer look

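The cut-off for a sample far from the rest flags about 1 in 20 groups of independent, normally distributed values. CPM with many 0 counts, and sums that hold listed genes, are not such values. The number flagged here therefore cannot be read as an excess over chance. Among 122 groups of values 17, all of HGA or metastases, had 1 sample far from the rest. In HGA these were ST6GALNAC1 at 1.81 CPM in HGA 2 (next 0), NEU4 at 3.29 in HGA 8 (next 0.57), GALNT6 at 14.0 in HGA 7 (next 7.24), GALNT12 at 12.0 in HGA 3 (next 4.52), CD2 at 13.6 in HGA 8 (next 6.69), VWF at 282 and PECAM1 at 150 in HGA 7 (next 148 and 77.7), the T cell sum at 40.7 in HGA 8 (next 13.7) and the endothelium sum at 571 in HGA 7 (next 291). In the metastases these were ST3GAL3 at 0.973 in metastasis 1, the lowest (next 2.57), ST3GAL4 at 45.7 in metastasis 4 (next 2.57), ST8SIA6 at 13.7 in metastasis 4 (next 2.27), MAN2A1 at 63.9 in metastasis 1, the lowest (next 84.6), GALNT12 at 56.8 in metastasis 2 (next 24), UGCG at 107 in metastasis 1, the lowest (next 826), ACTA2 at 368 in metastasis 2 (next 70.6) and the smooth muscle sum at 401 in metastasis 2 (next 88.8). No AGASAC group is listed, which does not mean that no AGASAC sample stood apart. ST6GAL2 had 1130 CPM in AGASAC 7 (next 456.9) and ST3GAL6 had 181.5 CPM in AGASAC 9 (next 85.99). All samples were kept.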

How the results depend on the processing

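Members called between HGA and AGASAC were 3, with 3 under pairing by replicate number as block, 0 when 10 counts in every sample were asked for (2 members tested) and 1 in extraction batch 8 alone. Pathway genes called were 20, with 19 under the block, 8 under that filter (25 tested), and 1, 4 and 1 in batches 5, 6 and 8 alone. HGA and AGASAC share only numbers (r −0.0554 to 0.0409, 0 of 10 best with their own number), while metastasis and AGASAC of a number are the same dog. HGA and metastasis also share only numbers, and just numbers 1 to 4 occur in both. That block thus pairs different dogs, and it leaves the other HGA without a partner. Members called between HGA and metastasis were 3, with 2 under the block (ST6GAL2 −5.67, p = 0.255 by edgeR (quasi-likelihood, Benjamini-Yekutieli)), 0 under that filter (3 tested) and 0 in batches 5 and 8 alone. The block also ended the calls of ST8SIA6 between HGA and metastasis (4.86, p = 0.44 by edgeR (quasi-likelihood, Benjamini-Yekutieli)) and of SLC35A1 between HGA and AGASAC (−1.53, p = 0.0617). Of all genes 3032 were called between HGA and AGASAC, 1452 under that filter and 262, 637 and 338 in batches 5, 6 and 8. Between HGA and metastasis 2124 were called, 762 under the block, 1153 under that filter, 3536 by Benjamini-Hochberg and 0 in batches 5 and 8. Between metastasis and AGASAC 0 members were called, also under the paired block, with 0 genes called, 1 under the block and 5 by DESeq2. The strict filter leaves ST6GAL1, ST6GAL2 and ST6GALNAC2 untested, as their lowest counts over all samples were 7, 0 and 0. Its 0 members called thus says nothing about these genes. The batches test fewer samples, and for the rest the cause was not tested. Leave-one-out ranges between HGA and AGASAC were −5.54 to −5.21 for ST6GAL1, −8.33 to −6.95 for ST6GAL2 and 5.67 to 6.31 for ST6GALNAC2. Direction turned only in genes that were not called: ST3GAL1 0.0555 in batch 8, and ST3GAL6 0.53 under the block, 0.0608 with sex, 0.34 with neutering, 0.0339 with extraction batch, 0.48 in batch 8, 0.64 in series A, 0.15 with all 15 AGASAC samples and −0.40 to 0.61 over leave-outs. Between metastasis and AGASAC they were ST6GAL1 (−0.33 in 1 fit of all samples, −0.0725 under the block, −0.34 against 11 primary tumors, −0.27 to 0.22 over leave-outs), ST6GAL2 (0.40 under the block, −1.16 to 1.47), ST3GAL1 (−0.21 to 0.35), ST3GAL2 (−0.27 to 0.0231), ST3GAL5 (0.0577 under the block, −0.54 to 0.61) and ST3GAL6 (−0.63 to 0.12). Over all 17 alternatives of that comparison, beyond leave-outs alone, ST3GAL6 ran from −1.12 to 0.12. Of 550 alternative member values 499 kept their standing, 11 were weaker, 4 stronger and 36 reversed, with 0 reversed among the 183 of called members. Of 661 values of named pathway genes 58 were weaker and 0 reversed. Extraction batches 5 and 8 for HGA against metastasis were added after the data were seen.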
